A study of Mus musculus with 10 samples.

Results

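Molecular chaperones bind unfolded or partly folded proteins and keep them from aggregating. HSP70 proteins do so in cycles of ATP hydrolysis that J-proteins, named after their J domain, start and that nucleotide exchange factors reset. HSP90 acts later on selected clients such as kinases and steroid receptors, small heat shock proteins hold unfolded clients without ATP, and the ring-shaped chaperonin folds actin, tubulin and other clients inside a closed chamber. In melanoma cells, as in other secretory cells, a separate set of these proteins works in the endoplasmic reticulum, where pigment enzymes and surface proteins are folded.

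The genes described here are the heat shock protein, J-protein and chaperonin genes, chosen by symbol: names that begin with Hsp, with Dnaj and a class letter, or with Cct and a subunit number from 2 to 8. In all, 64 genes of the 10735 in the expression table had such a name. Hspd1 and Hspe1 on chromosome 1 and Dnajc5 on chromosome 2 were left out by position, since genes that start between 30 and 70 Mb on chromosome 1, from 150 Mb on chromosome 2 or from 115 Mb on chromosome 8 were not taken into the set. The remaining 61 genes were grouped by class (HSP90, HSP70, HSP110, small HSP, J-protein classes A, B and C, chaperonin and HSP-binding proteins) and by the compartment in which the protein is known to work. Cct6a, Hspa1a and Hspb8 were not analysed here.

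The libraries came from B16-F1, a mouse melanoma line of C57Bl/6 origin. One group was the wild-type line (WT), and the other was B16-F1ΔFOXC2, which lacks the forkhead transcription factor FOXC2. Each group had 5 libraries, from 1000000 cells seeded and grown for 24 h in RPMI-1640 with 10% FBS, with no other treatment, and harvested at about 90% confluence from passages 5 to 10. Whether the ΔFOXC2 line is 1 clone or several is not given in the labels, so an effect of the deletion and a difference between lines cannot be told apart. Foxc2 itself was not analysed here, so the genotype labels were not checked against it.

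Values are FPKM, fragments scaled to transcript length and to the mapped fragments of the library, as the authors deposited them. Read depth is unknown: among 699 genes under 1 FPKM, at most 5 shared the same ratio (to 4 digits) between a pair of libraries, so whole reads could not be recovered. FPKM summed to between 240441 and 251273 per library, with a median gene at 7.84 to 8.14. All 7 melanocyte markers were in the table, and their summed level was 3183 to 3651 FPKM in WT and 3821 to 4215 in ΔFOXC2. Of 5 leukocyte markers, only Cd68 and Lyz2 were in the table, with sums of 0.757 to 1.40 FPKM in WT and 2.53 to 4.59 in ΔFOXC2. Of 4 fibroblast markers only Col1a2 was in the table, at 0.823 to 0.899 FPKM in WT and 0.581 to 0.931 in ΔFOXC2, and no listed endothelial or epithelial marker was. The part of these marker differences in the results was not tested.

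Differences are WT minus ΔFOXC2 on the log2(FPKM + 0.1) scale, so a positive value means a higher level in WT, and "rose" or "fell" refers to WT relative to ΔFOXC2. A gene was called where limma's Benjamini-Hochberg adjusted p was at most 0.05 and the fold was at least 1.5, a log2 difference of 0.585. Among 10570 genes tested, 911 (8.62%) were called, 386 higher (3.65%) and 525 lower (4.97%) in WT. All 61 chaperone genes were tested and none had a value of 0 in any library. Only 2 of the 61 (3.28%) were called: Hspa12b rose and Hspb1 fell.

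Most differences among the chaperone genes were small, and the shares that passed were near those of all genes. At the adjusted p alone, with no demand on the fold, 28 of 61 genes (45.9%) passed, 16 higher and 12 lower in WT, beside 4392 of all genes tested (41.6%), of which 2199 (20.8%) were higher and 2193 (20.7%) lower. For 26 of the 28 the difference was under 1.5-fold. The WT and ΔFOXC2 libraries did not overlap for 21 of 61 genes (34.4%), beside 30.0% of all genes. The median log2 difference was -0.03 over the 61 genes and 0.01 over all genes, and the median size of the difference regardless of sign was 0.166 and 0.170. The 61 genes together held 1.72 to 1.79% of all FPKM in WT libraries and 1.61 to 1.78% in ΔFOXC2 libraries, so their summed level overlapped between the groups.

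Levels, in contrast, ranged widely, from a mean over the 10 libraries of 0.570 FPKM for Hspa12b to 1128 FPKM for Hsp90ab1, with a median of 15.9 FPKM beside 8.21 for all genes. Spread between replicates was close to that of other genes. For the 47 chaperone genes at 5 FPKM or more on average, the median coefficient of variation was 5.69% in WT and 6.03% in ΔFOXC2, and over 6842 genes at that level it was 6.45% and 6.08%.

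**Figure D1:**
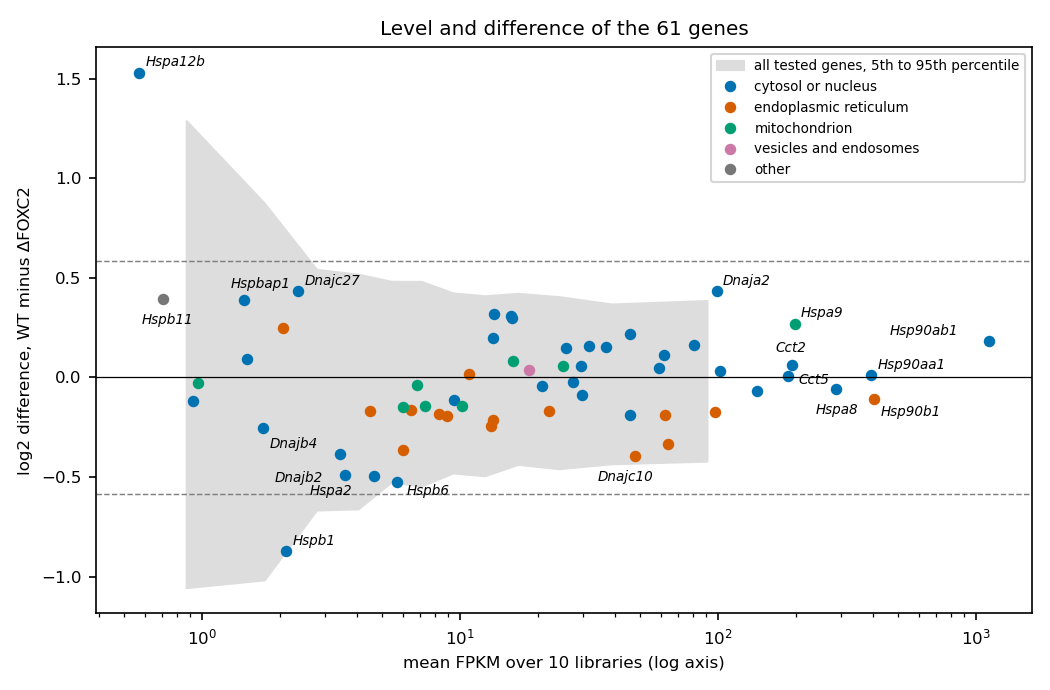
Each point is 1 of the 61 chaperone genes, placed by its mean FPKM over 10 libraries (horizontal, log axis) and its log2 difference, WT minus ΔFOXC2 (vertical), and coloured by compartment. The grey band joins the 5th and 95th percentiles of all tested genes, in bins of level, between the medians of the lowest and the highest bin, and dashed lines mark 1.5-fold. Only Hspa12b at 1.53 and Hspb1 at -0.87 lie past a dashed line, both among the weakly expressed genes.

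Of 3 small heat shock proteins, 2 were lower in WT at the adjusted p and 1 of these was called. Among all genes tested, 20.7% were lower at the adjusted p and 4.97% were called lower. The median difference over the 3 was -0.53. Hspb1 encodes HSP27, a small heat shock protein that holds unfolded clients and binds actin filaments. It lies at chr5:135887919-135889563 (GRCm38), and its level was 1.59, 2.45, 1.30, 1.03 and 1.16 FPKM in WT replicates 1 to 5 and 2.96, 2.42, 3.07, 2.47 and 2.70 in ΔFOXC2 replicates 1 to 5. WT replicate 2 stood above the other WT libraries and just above the lowest ΔFOXC2 library, so the groups overlapped. The means were 1.51 ± 0.567 and 2.72 ± 0.287 FPKM (SD, n = 5 each), and Hspb1 fell in WT by 0.87 on the log2 scale (SE 0.191, 95% interval -1.29 to -0.45, limma adjusted p = 0.00364). Without WT replicate 2 the difference was -1.05.

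Promoters of heat-inducible genes carry heat shock elements, inverted repeats of GAA that heat shock factors bind. The promoter window of Hspb1, the called small heat shock protein, is printed because it held 2 matches to the core GAANNTTC. It covers the 250 bases before the RefSeq start on the plus strand, chr5:135887669-135887918 in GRCm38.p6, with the matches in capitals.
Hspb1: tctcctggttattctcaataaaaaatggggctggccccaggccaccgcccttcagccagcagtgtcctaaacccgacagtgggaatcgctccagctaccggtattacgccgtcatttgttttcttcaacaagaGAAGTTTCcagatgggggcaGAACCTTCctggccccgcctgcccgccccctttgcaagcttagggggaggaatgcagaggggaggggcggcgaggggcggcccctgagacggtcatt
RefSeq windows were at hand for 49 of the 61 genes, 64 windows in all, since some genes have more than 1 start. GAANNTTC occurred in 8 of the 64 (12.5%, 7 genes), beside 6.69% of 32851 windows of the same length, and the inverse core TTCNNGAA in 7 (10.9%, 5 genes) beside 7.17%. Both cores read the same on either strand, and 13 of the 64 windows (20.3%, 11 genes) held at least 1 of them, beside 12.8% of all windows. Dnajb6 and Hsph1 each had matches counted in 2 overlapping windows. A longer form, GAANNTTC followed directly by NNGAA and searched on both strands, joins both cores. It occurred in 2 of the 64 windows (3.12%), beside 0.466% of all windows. Both are overlapping windows of Dnajb6 that hold the same stretch, so it is 1 site in 1 of 49 genes (2.04%). That stretch, chr5:29735844-29735872 on the plus strand, is shown with the repeat in capitals for comparison with Hspb1.
Dnajb6: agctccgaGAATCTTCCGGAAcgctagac
Dnajb6, a class B J-protein that keeps polyglutamine proteins from aggregating, had 20.4 ± 0.474 FPKM in WT and 21.0 ± 0.890 in ΔFOXC2, and its difference of -0.04 did not pass the test (adjusted p = 0.431). A match is a match of letters and says nothing of binding.

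Hspb6, which encodes HSP20, was the other small heat shock protein that passed at the adjusted p. Its WT libraries held 5.08, 4.70, 4.91, 3.98 and 4.51 FPKM and its ΔFOXC2 libraries 7.71, 7.45, 6.22, 6.07 and 6.22. Every WT library lay below every ΔFOXC2 library. The difference of -0.53 was under 1.5-fold (adjusted p = 0.000689). Hspb2, a partner of Hspb3 in muscle, had 27.3 ± 2.88 and 27.8 ± 3.80 FPKM, a difference of -0.02 (adjusted p = 0.89). Hspb2 shares 252 of its 834 exon bases (30.2%) with Cryab, the alpha-B crystallin gene on the opposite strand, and whether reads were counted by strand is not given in the sources used here, so its reads and those of Cryab may not be separated. Hspb11 carries a small HSP name but encodes the intraflagellar transport subunit IFT25, and it had 0.813 ± 0.110 FPKM in WT and 0.595 ± 0.0777 in ΔFOXC2. That difference of 0.39 passed at the adjusted p (0.0277), with no overlap, at a level close to the lowest the authors kept.

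Hspa12b, an atypical member of the HSP70 family known from endothelial cells, was the other called gene. It lies at chr2:131127280-131146321 and had 0.707, 0.836, 0.935, 0.977 and 0.904 FPKM in WT against 0.131, 0.105, 0.197, 0.381 and 0.524 in ΔFOXC2. All WT libraries were above all ΔFOXC2 libraries, and the ΔFOXC2 libraries differed several-fold among themselves. The means were 0.872 ± 0.106 and 0.268 ± 0.179 FPKM, and Hspa12b rose by 1.53 on the log2 scale (SE 0.287, 95% interval 0.90 to 2.16, adjusted p = 0.0014). With a pseudocount of 1 in place of 0.1 the difference was 0.57, short of 1.5-fold. The smallest larger group mean in the table was 0.5003 FPKM, so Hspa12b was listed only through its WT level and had to be higher there. Of 3 endothelial markers none was in the table.

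**Figure D2:**
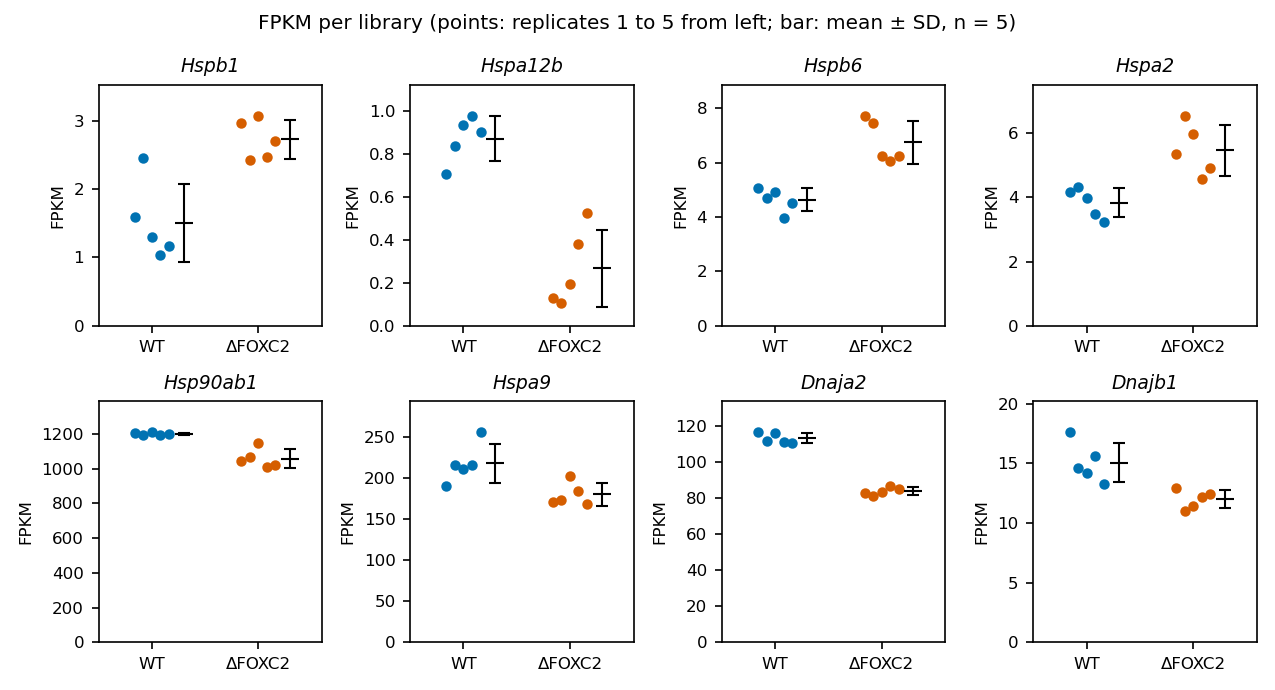
FPKM of 8 chaperone genes in each library, with 1 point per library (WT blue, ΔFOXC2 orange), and the mean ± SD (n = 5) beside them; each vertical axis starts at 0. WT replicate 2 of Hspb1, at 2.45 FPKM, reaches the ΔFOXC2 range, and Hsp90ab1 is the most abundant and among the least variable genes in WT.

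In the HSP90 class the constitutive cytosolic gene differed and the inducible one did not pass. Hsp90ab1, the most abundant chaperone gene here, had 1204, 1192, 1208, 1191 and 1197 FPKM in WT and 1046, 1065, 1150, 1011 and 1019 in ΔFOXC2. WT libraries were tightly grouped and all above the ΔFOXC2 libraries. The means of 1198 ± 7.36 and 1058 ± 55.7 FPKM differed by 0.18 (SE 0.035, adjusted p = 0.00155), well under 1.5-fold. Hsp90aa1, the stress-inducible cytosolic form, had 389, 385, 390, 406 and 401 FPKM in WT and 386, 362, 403, 401 and 405 in ΔFOXC2, a difference of 0.01 with a 95% interval of -0.07 to 0.09 (adjusted p = 0.819). The groups overlapped.

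The balance of the cytosolic HSP90 genes differed accordingly. Hsp90aa1 made up 24.4, 24.4, 24.4, 25.4 and 25.1% of their summed FPKM in WT and 27.0, 25.4, 26.0, 28.4 and 28.5% in ΔFOXC2. ΔFOXC2 replicate 2 touched the WT range and the other 4 lay above it. The means of 24.8 ± 0.479% and 27.0 ± 1.40% differed by -2.27 percentage points (two-sided exact permutation test, p = 0.0159, adjusted over 3 such shares 0.0238). The smallest p such a test allows is 0.00794.

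The cytosolic HSP70 genes showed no common direction. Hspa8, which encodes the constitutive HSC70, had 324, 267, 288, 303 and 231 FPKM in WT and 302, 259, 287, 301 and 319 in ΔFOXC2. The groups overlapped almost fully, with a difference of -0.06 (95% interval -0.25 to 0.13, adjusted p = 0.608). The stress-inducible Hspa1b had 1.54 ± 0.322 and 1.43 ± 0.260 FPKM, a difference of 0.09 (adjusted p = 0.682), and its near-identical copy Hspa1a may share its reads. Hspa2, best known from spermatogenesis, had 4.17, 4.31, 3.97, 3.48 and 3.24 FPKM in WT and 5.34, 6.52, 5.98, 4.56 and 4.90 in ΔFOXC2. No WT library reached a ΔFOXC2 library, and the difference of -0.50 passed at the adjusted p (0.0039) under 1.5-fold. Hspa14, a ribosome-associated HSP70, differed in the opposite direction by 0.15, from 24.5 ± 0.709 FPKM in ΔFOXC2 to 27.2 ± 1.02 in WT (adjusted p = 0.00875).

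The HSP110 genes, which act as nucleotide exchange factors for HSP70, gave no gene past the adjusted p. Hspa4 had 138 ± 3.12 and 145 ± 6.14 FPKM (-0.07, adjusted p = 0.143). Hsph1, the stress-inducible HSP110, had 30.1 ± 3.37 and 28.9 ± 3.61 FPKM (0.06, adjusted p = 0.657). Hspa4l, at 1.57 ± 0.158 and 1.89 ± 0.171 FPKM, came closest (-0.25, adjusted p = 0.0518). The HSP-binding genes had 1 of 2 past it, Hspbp1, an HSP70 exchange factor, with 14.3 ± 1.10 and 12.5 ± 0.952 FPKM (0.20, adjusted p = 0.0305), while Hspbap1 had 1.65 ± 0.255 and 1.25 ± 0.282 (0.39, adjusted p = 0.0907).

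J-proteins were the largest group, 35 genes, none of them called, beside 8.62% of all genes. At the adjusted p, 7 were higher and 9 lower in WT (45.7% together, beside 41.6% of all genes), with a median of -0.12. The groups did not overlap for 15 (42.9%, beside 30.0% of all genes). Counts of the J-proteins are given by compartment, and the difference between compartments was not tested.

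**Figure D3:**
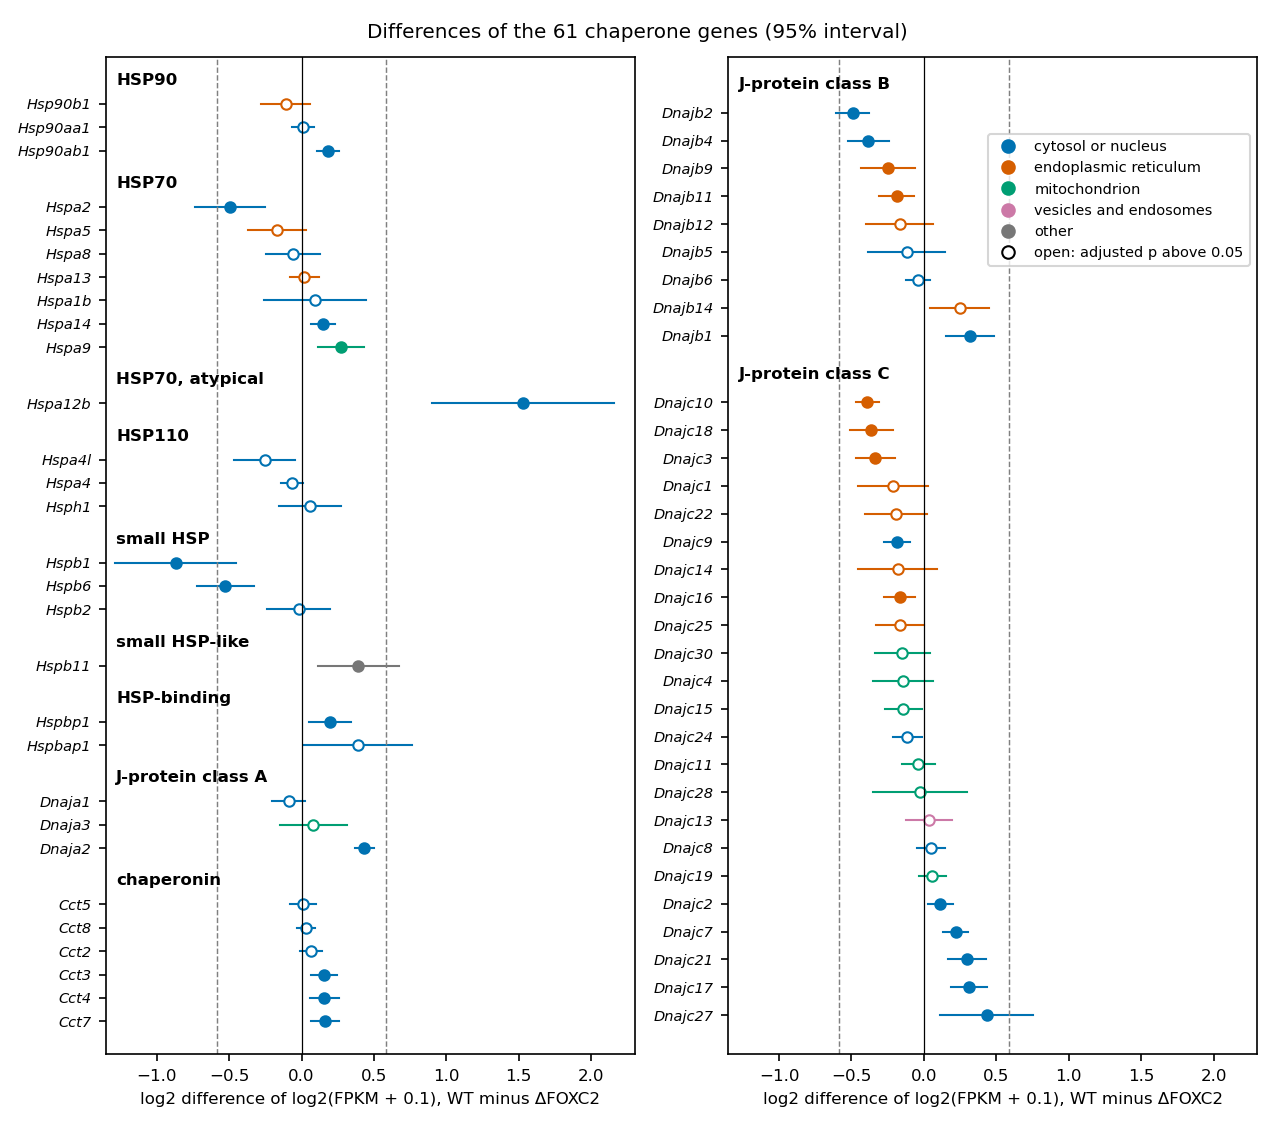
Log2 difference, WT minus ΔFOXC2, with its 95% interval from limma, for each of the 61 chaperone genes, by class (headings) and compartment (colours); open circles have an adjusted p above 0.05 and dashed lines mark 1.5-fold. Genes of the endoplasmic reticulum lie below 0 except Dnajb14 and Hspa13, and of the chaperonin subunits Cct3, Cct4 and Cct7 have filled circles above 0.

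Of 15 genes of the endoplasmic reticulum, 6 were lower in WT at the adjusted p and none higher, while 9 did not pass. Their median difference was -0.18, and 13 of the 15 values were below 0, beside 5171 of all 10570 genes tested. For all genes the share lower at the adjusted p was 20.7%. None of the 15 reached 1.5-fold. All 6 that passed were J-proteins, out of 12 in that compartment, and the chaperones Hspa5 and Hsp90b1 did not pass. Hsp90b1, Dnajb12 and Dnajc14 lie on chromosome 10 and Dnajc3 on chromosome 14, where the medians of all tested genes were -0.11 and -0.13. The others lie on chromosomes with medians from -0.06 to 0.06. The part of these medians in the signs was not tested.

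Dnajc10 encodes ERdj5, a J-protein and disulfide reductase that helps clear misfolded proteins, and it differed most steadily. It had 39.5, 41.6, 40.8, 40.1 and 44.0 FPKM in WT and 53.9, 55.4, 52.1, 54.2 and 54.8 in ΔFOXC2. The groups lay far apart relative to their spread, and the difference was -0.39 (SE 0.036, adjusted p = 8.17e-06). Dnajc3, or p58IPK, a co-chaperone of BiP that also restrains the kinase PERK, had 51.6, 54.1, 57.0, 59.6 and 59.8 FPKM in WT and 67.6, 63.5, 72.5, 76.9 and 75.9 in ΔFOXC2. These groups did not overlap either, with a difference of -0.34 (adjusted p = 0.0011). Dnajc3 lies on chromosome 14, where the median of all tested genes was -0.13, and after subtraction of each chromosome's median its difference was -0.21 (adjusted p = 0.0213).

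Dnajc18, a membrane J-protein, had 5.27 ± 0.440 and 6.80 ± 0.350 FPKM (-0.36, adjusted p = 0.00119). Dnajc16, an ER membrane J-protein, had 4.23 ± 0.117 and 4.76 ± 0.158 (-0.17, adjusted p = 0.0184). Neither gene's groups overlapped. The other 4 class C J-proteins assigned to this compartment, Dnajc1, Dnajc14, Dnajc22 and Dnajc25, were between -0.21 and -0.16 and did not pass. Summed over all 8, the level was 133 to 148 FPKM in WT and 170 to 181 in ΔFOXC2, without overlap. That sum leans on Dnajc3 and Dnajc10, with means over the 10 libraries of 63.9 and 47.6 FPKM, beside 13.5 for Dnajc1, the next.

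Among the class B J-proteins of the compartment, Dnajb11, or ERdj3, which binds unfolded clients with BiP, had 62.0, 51.5, 58.5, 62.1 and 56.3 FPKM in WT and 62.8, 63.8, 70.5, 68.9 and 64.8 in ΔFOXC2. The groups did not overlap, with a difference of -0.19 (adjusted p = 0.0182). Dnajb9, or ERdj4, had 11.9, 11.7, 11.4, 12.4 and 12.6 FPKM in WT and 15.7, 11.4, 13.5, 15.5 and 15.6 in ΔFOXC2. ΔFOXC2 replicate 2 was the lowest of all 10 libraries and the other 4 ΔFOXC2 libraries lay above every WT library, and the difference was -0.25 (adjusted p = 0.0374). Dnajb12 (-0.17, adjusted p = 0.226) and Dnajb14 (0.25, adjusted p = 0.0524), membrane J-proteins of ER-associated degradation, differed in sign and did not pass.

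The chaperones Hspa5 and Hsp90b1 were also lower on average in WT and did not pass. Their ΔFOXC2 spread was wide, with coefficients of variation of 14.2% and 12.9%. For Dnajc16, which passed at a difference close to that of Hspa5, it was 3.31%, and for Dnajb9, which also passed, 13.2%. Hspa5, which encodes BiP, the HSP70 of the compartment, had 92.6, 91.9, 92.1, 97.6 and 82.2 FPKM in WT and 96.9, 81.0, 117, 113 and 111 in ΔFOXC2. Hsp90b1, which encodes GRP94, the HSP90 of the compartment, had 390, 387, 382, 408 and 370 FPKM in WT and 392, 347, 492, 443 and 430 in ΔFOXC2. In both genes ΔFOXC2 replicate 2 was the lowest of all 10 libraries and ΔFOXC2 replicate 3 the highest. The differences were -0.17 for Hspa5 (95% interval -0.37 to 0.03, adjusted p = 0.155) and -0.11 for Hsp90b1 (-0.28 to 0.06, adjusted p = 0.281). Without ΔFOXC2 replicate 2 they were -0.26 (adjusted p = 0.00845) and -0.18 (adjusted p = 0.0348), and Dnajb9 was at -0.33 (adjusted p = 0.00146). Without ΔFOXC2 replicate 3, the highest, Hsp90b1 was at -0.05 (adjusted p = 0.574). With each library left out in turn, Hspa5 ranged from -0.26 to -0.13, with adjusted p up to 0.3045. Whether Hspa5 and Hsp90b1 pass thus depends on single libraries. Hsp90b1 lies on chromosome 10, where the median of 522 genes was -0.11, and relative to it its difference over all libraries was -0.00291 (adjusted p = 0.984), beside -0.15 for Hspa5 on chromosome 2 (adjusted p = 0.237). Hspa13, a microsomal HSP70, was at 0.02 (adjusted p = 0.755). The share of Hspa5 in the sum of Hspa5 and Hspa8 was 24.5 ± 1.55% in WT and 26.0 ± 2.12% in ΔFOXC2, a difference of -1.49 percentage points (two-sided exact permutation test, p = 0.262, adjusted over 3 shares 0.262).

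**Figure D4:**
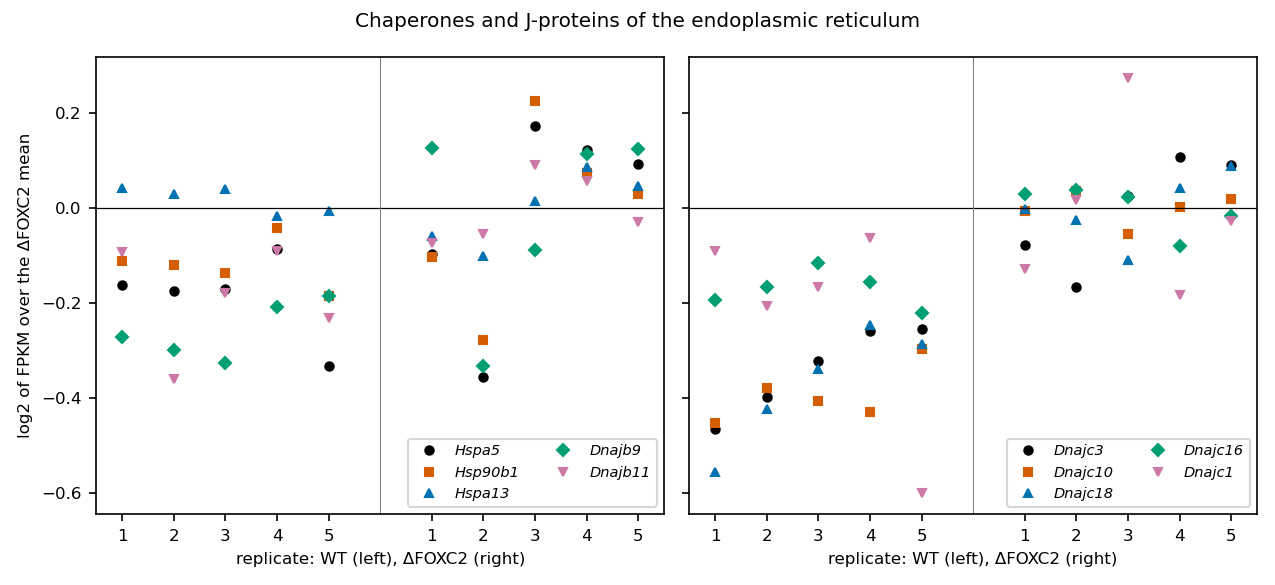
Each point is a gene's FPKM in a library as log2 of its ratio to that gene's ΔFOXC2 mean, for 10 genes of the endoplasmic reticulum; WT libraries are left and ΔFOXC2 libraries right of the line in each panel. In ΔFOXC2 replicate 2, Hspa5 (81.0 FPKM), Hsp90b1 (347 FPKM) and Dnajb9 (11.4 FPKM) sit together at the bottom, while Dnajc10 stays near its group's mean.

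Genes of the unfolded protein response carry the ER stress element, CCAAT and CCACG spaced by 9 bases, which ATF6 binds together with NF-Y. Searched on both strands, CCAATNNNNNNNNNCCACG was found in 3 of the 64 windows (4.69%), those of Hspa5, Hsp90b1 and Dnajc3, beside 0.113% of all windows. The matches are printed with the element in capitals because they are the only members among the 49 that carry it. Hspa5 is at chr2:34772020-34772048 and Dnajc3 at chr14:118937822-118937850, both on the plus strand, and the Hsp90b1 matches are at chr10:86705633-86705661 and chr10:86705528-86705556 on the minus strand, where the gene lies.
Hspa5: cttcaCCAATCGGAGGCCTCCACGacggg
Dnajc3: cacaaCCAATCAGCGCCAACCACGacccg
Hsp90b1, upstream match: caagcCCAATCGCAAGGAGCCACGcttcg
Hsp90b1, downstream match, which reads as the element on the opposite strand: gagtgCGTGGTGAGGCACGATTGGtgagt
Of the carriers, Dnajc3 passed at the adjusted p and the others did not. The windows of Dnajc10, Dnajb9 and Dnajb11 held no match to these letters.

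Cytosolic and nuclear J-proteins went in both directions, and several lie on chromosomes whose genes were shifted as a whole. Dnaja2, a class A partner of HSC70 at chr8:85537633-85555344, had 117, 112, 116, 111 and 111 FPKM in WT and 83.1, 81.5, 83.4, 87.0 and 85.1 in ΔFOXC2. The groups were far apart, with a difference of 0.43 (SE 0.030, adjusted p = 8.65e-07). Dnajb1, the main stress-inducible class B J-protein, at chr8:83608193-83612653, had 17.6, 14.6, 14.2, 15.6 and 13.3 FPKM in WT and 13.0, 11.0, 11.5, 12.2 and 12.5 in ΔFOXC2, also without overlap (0.32, adjusted p = 0.00549). Among all 578 tested genes of chromosome 8, however, the median difference was 0.36 and 89.6% were above 0. After subtraction of that median Dnaja2 was at 0.07 (adjusted p = 0.0960) and Dnajb1 at -0.05 (adjusted p = 0.679), and neither passed.

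Dnajb2, a class B J-protein with ubiquitin-interacting motifs, lies on chromosome 1, where the median of 573 genes was -0.26 and 11.2% were above 0. It had 3.00, 3.09, 2.92, 2.89 and 2.91 FPKM in WT and 4.04, 4.10, 4.36, 4.34 and 4.18 in ΔFOXC2. The groups did not overlap, and the difference was -0.49 (adjusted p = 2.43e-05), or -0.23 relative to its chromosome (adjusted p = 0.00421). Dnajb4, a close relative of Dnajb1, had 2.98 ± 0.223 and 3.91 ± 0.151 FPKM (-0.38, adjusted p = 0.000694), opposite in sign to Dnajb1. Dnaja1, the other abundant class A partner, had 28.7 ± 2.00 and 30.5 ± 1.36 FPKM (-0.09, adjusted p = 0.201).

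The share of Dnajb1 in the sum of Dnaja1 and Dnajb1 was 36.5, 34.7, 32.4, 34.2 and 34.0% in WT and 29.6, 27.9, 27.6, 28.4 and 27.9% in ΔFOXC2. All WT shares were above all ΔFOXC2 shares. The difference of 6.10 percentage points gave the smallest p the two-sided exact permutation test allows, 0.00794 (adjusted over 3 shares 0.0238). Dnaja1 is not on chromosome 8, so the share and the shift of that chromosome cannot be told apart.

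Class C J-proteins of the cytosol and nucleus had a median of 0.17 over 8 genes. At the adjusted p, 5 were higher and 1 lower (75.0% together, beside 41.6% of all genes). Dnajc7, a TPR protein that links HSP70 and HSP90, had 48.9 ± 0.796 FPKM in WT and 42.0 ± 2.29 in ΔFOXC2 (0.22, adjusted p = 0.00104). Dnajc17, a J-protein with an RNA-binding motif, had 17.5 ± 0.979 and 14.1 ± 0.959 (0.31, adjusted p = 0.00125), and Dnajc21, a ribosome biogenesis factor, had 17.6 ± 0.747 and 14.3 ± 1.19 (0.30, adjusted p = 0.00199). For these genes no WT library overlapped a ΔFOXC2 library. Dnajc2, which works with Hspa14 at the ribosome, had 64.0 ± 2.75 and 59.1 ± 2.21 FPKM (0.11, adjusted p = 0.0359), and both partners were slightly higher in WT. The difference of Dnajc2 did not pass in 6 of the 10 cases with a library left out. Relative to its chromosome it was 0.07 (adjusted p = 0.205). The gene lower in WT was Dnajc9, a histone chaperone on chromosome 14, with 42.8 ± 2.44 and 48.6 ± 1.19 FPKM (-0.19, adjusted p = 0.00396, and -0.06, adjusted p = 0.324, relative to its chromosome). Dnajc27, a Rab-like protein with a J domain, had 2.72 ± 0.335 and 2.01 ± 0.393 FPKM (0.44, adjusted p = 0.0331), and its groups overlapped.

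Mitochondrial chaperones and J-proteins gave small differences. Of 8 genes, 1 passed at the adjusted p (12.5%, beside 41.6% of all genes). In none were the groups apart, beside 30.0% of all genes. Hspa9, which encodes mortalin, the mitochondrial HSP70, had 190, 216, 211, 215 and 255 FPKM in WT and 171, 173, 202, 184 and 169 in ΔFOXC2. WT replicate 1 lay below the highest ΔFOXC2 library, and the difference was 0.27 (adjusted p = 0.0118). Its J-protein Dnaja3 had 16.4 ± 1.76 and 15.6 ± 2.24 FPKM (0.08, adjusted p = 0.571). The 6 mitochondrial class C J-proteins ranged from -0.15 to 0.06 and none passed. Dnajc13, an endosomal J-protein, was at 0.04 (adjusted p = 0.732).

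Of the 6 chaperonin subunits, 3 (50.0%) were slightly higher in WT at the adjusted p, beside 20.8% of all genes, and 3 did not pass. The median difference of the 6 was 0.11, none reached 1.5-fold, and in all 6 the groups overlapped. Cct3 had 38.7 ± 1.94 FPKM in WT and 34.7 ± 0.896 in ΔFOXC2 (0.16, adjusted p = 0.00969). Cct4 had 33.4 ± 1.58 and 29.9 ± 1.36 (0.16, adjusted p = 0.0151), and Cct7 85.3 ± 4.64 and 76.2 ± 3.04 (0.16, adjusted p = 0.0109). The more abundant subunits gave smaller differences that did not pass. Cct2 had 198 ± 6.75 and 190 ± 6.41 FPKM (0.06, adjusted p = 0.148), Cct5 187 ± 8.18 and 186 ± 8.73 (0.01, adjusted p = 0.894), and Cct8 103 ± 2.40 and 100 ± 2.15 (0.03, adjusted p = 0.388). Cct2 lies on chromosome 10, where the median of all tested genes was -0.11. Relative to each chromosome's median, Cct2 was at 0.17 and passed (adjusted p = 0.0023), the largest difference of the 6. Cct3 was then at 0.11 and did not pass (adjusted p = 0.0545). The summed level of the 6 subunits was 627 to 677 FPKM in WT and 595 to 642 in ΔFOXC2.

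Although the chaperonin ring holds its subunits in equal number, their FPKM was far from equal. The mean of the highest subunit, Cct2, was 5.94 times that of the lowest, Cct4, in WT and 6.34 times in ΔFOXC2. Tcp1, which encodes subunit CCT1 and falls outside the names chosen, had 136 ± 5.59 and 128 ± 4.39 FPKM (0.09, adjusted p = 0.0833), between Cct8 and Cct5.

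**Figure D5:**
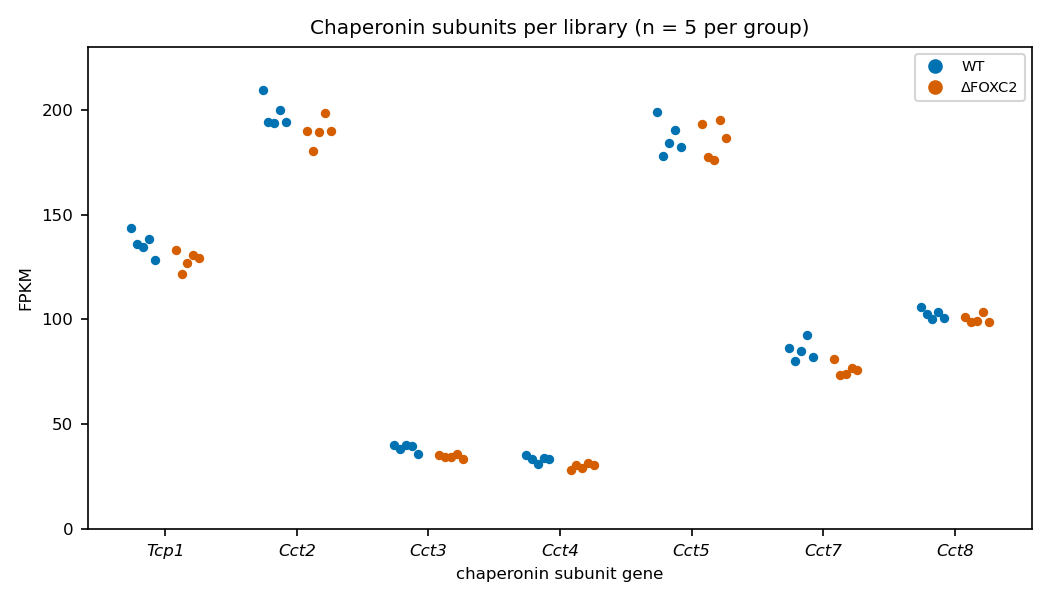
FPKM of 7 chaperonin subunit genes per library (1 point each, n = 5 per group, WT blue, ΔFOXC2 orange). Within each gene the groups overlap, while levels differ between subunits, from Cct4 (33.4 and 29.9 FPKM) to Cct2 (198 and 190 FPKM).

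Genes that work with these chaperones were described from lists by function. The same chromosome stretches were left out, which removed 5 listed genes. Of 59 others tested, 1 was called higher and 1 lower (3.39% together, beside 8.62% of all genes). At the adjusted p, 13 were higher and 13 lower (44.1% together, beside 41.6% of all genes), and the median log2 difference was -0.00276. Both called genes belong to the ER folding list, of which 16 of 17 genes were tested. In that list 2 were higher and 5 lower at the adjusted p (43.8% together), with a median of -0.12. Herpud1, a membrane protein of ER-associated degradation, rose from 16.4 ± 6.00 FPKM in ΔFOXC2 to 34.7 ± 5.91 in WT (1.13, adjusted p = 0.00166), and it lies on chromosome 8. Atf6, the stress sensor that becomes a transcription factor, had 7.94, 8.93, 9.28, 9.58 and 11.8 FPKM in WT and 18.0, 19.0, 16.2, 19.5 and 19.1 in ΔFOXC2. It fell by 0.95 on the log2 scale (SE 0.093, adjusted p = 1.22e-05), with no overlap, and lies on chromosome 1, whose median was -0.26.

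Of 5 listed heat shock factors and binding proteins, 3 were tested, all factors, with a median of 0.17. At the adjusted p 1 was higher (33.3%, beside 41.6% of all genes in either direction). That gene, Hsf4, best known from the lens, had 12.5 ± 1.18 and 8.80 ± 0.452 FPKM (0.50, adjusted p = 0.000136), and it lies on chromosome 8, whose median was 0.36. Hsf1, the main activator of the heat shock response, had 3.11 ± 0.326 and 3.18 ± 0.142 FPKM (-0.04, adjusted p = 0.738). Among 18 co-chaperones of HSP90 and HSP70, 5 were higher and 2 lower at the adjusted p (38.9% together, median 0.07). Fkbp4, an immunophilin that binds HSP90, had 281 ± 14.1 and 224 ± 13.3 FPKM (0.33, adjusted p = 0.000243), and St13, the HSP70-interacting protein, 182 ± 5.24 and 192 ± 4.88 (-0.08, adjusted p = 0.0492).

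Of 9 nucleotide exchange factors, 3 were higher and 2 lower at the adjusted p (55.6% together, beside 41.6% of all genes, median 0.05). Bag1, an HSP70 exchange factor, had 122 ± 3.49 and 140 ± 2.57 FPKM (-0.20, adjusted p = 0.000227), and Bag5 43.6 ± 1.11 and 42.0 ± 2.09 (0.05, adjusted p = 0.289). The 8 prefoldin and chaperonin partner genes had 1 higher and 2 lower (37.5% together, median -0.01). Their most abundant genes were Tcp1 and Pfdn1, the latter at 85.4 ± 5.95 and 89.3 ± 1.55 FPKM (-0.07, adjusted p = 0.248). For mitochondrial folding and proteolysis, 9 of 10 genes were tested, with 2 higher and 2 lower (44.4% together, median 0.02). Lonp1, the matrix protease, had 75.2 ± 6.82 and 84.5 ± 3.97 FPKM (-0.17, adjusted p = 0.0376), and Trap1, the mitochondrial HSP90, 68.2 ± 1.98 and 66.0 ± 1.85 (0.05, adjusted p = 0.273).

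Of the 61 genes, 22 share exon bases with another gene of GENCODE vM21 (GRCm38), 9 of them with a gene on the same strand, so their values may include reads of a neighbour. The values of 56 of the 61 come with coordinates that match a gene of that annotation exactly. Of the 28 genes that passed at the adjusted p, 23 did so whichever library was left out, 12 of them higher and 11 lower in WT, and the other 5 (Hspbp1, Dnajb9, Dnajc2, Dnajc27 and Hspb11) did not in at least 1 case. Relative to each chromosome's median, 21 of the 28 passed, and Hspbp1, Dnaja2, Dnajb1, Dnajc2, Dnajc27, Dnajc9 and Cct3 did not. In all, 11 of the 61 genes were then higher and 12 lower at the adjusted p, with Cct2, which had not passed before, among the higher.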

How the data were processed

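RNA was poly(A)-selected and made into stranded libraries, per the labels' protocols. FPKM values for 10 libraries come from the table the authors deposited. The submitters' processing notes name FastQC, cutadapt, HISAT2, StringTie and GRCm38; versions, filters and strand settings are not given in the sources used here. FPKM values are not counts and depth is unknown, so no counting interval was given. Genes that averaged 0.5 FPKM or more were tested with limma 3.58.1 (R 4.3.3; lmFit, eBayes with trend, two-sided, no covariate) on log2(FPKM + 0.1), which understates changes of low genes; 165 of 10735 genes fell below the filter. Adjusted p-values are Benjamini-Hochberg values over all 10570 tested genes. The labels number the libraries as replicates; where they are not separate cultures, p-values measure technical spread. Shares of summed FPKM were compared with exact permutation tests. Promoter windows and their matches come from RefSeq (GRCm38.p6). The genes and lists were chosen with earlier results of these data known. Chaperone genes named by rule are those called, the 2 most abundant of each class, those past the adjusted p, and 26 fixed by name. Of the 26, 23 were analysed. Hspa4l, Hspa13, Dnaja3, Dnajb14, Dnajc1, Dnajc13, Dnajc14, Dnajc22 and Dnajc25 are named outside that rule, and none of them passed. Classes and compartments were assigned from general knowledge, least surely for Dnajc22 and Dnajc28. Alternatives were other filters, pseudocounts and fold thresholds, chromosome centring, a replicate block and leaving out each library.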

Additional observations from a re-analysis of the deposited data

Results flagged for a closer look

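In 92 groups of 5 libraries, 2 had a library whose gap to the others exceeded Dixon's 95% critical value. Chance alone gives such a gap in about 1 in 20 groups. Both were ΔFOXC2 replicate 1. Dnajc27 had 1.31 FPKM there and 2.10 to 2.25 in the other ΔFOXC2 libraries, and without that library its difference was 0.30 (limma adjusted p = 0.0361). Hspbap1 had 0.762 FPKM there and 1.29 to 1.45 in the others.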

How the results depend on the processing

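Leaving out each library kept 1 gene called higher and 1 lower in all 10 cases. Hspa12b lay between 1.35 and 1.75 and Hspb1 between -1.05 and -0.76. Because Hspa12b was listed only through its WT level, its direction was set beforehand and these cases do not test it. Chaperone genes past the adjusted p alone numbered 12 to 15 higher and 11 to 14 lower. Signs turned only for differences that had not passed: Cct5 ranged from -0.0153 to 0.0261, Hsp90aa1 from -0.0162 to 0.0245, Hspa8 from -0.11 to 0.00997, Hspb2 from -0.0732 to 0.0459 and Hsph1 from -0.00296 to 0.13. The Hsp90aa1 share difference ranged from -2.69 to -1.91, that of Dnajb1 from 5.58 to 6.58 and that of Hspa5 from -2.04 to -0.755. Chromosome centring turned Dnajb1 to -0.0454 and Hsp90aa1 to -0.0222. With a minimum of 5 FPKM, which removes Hspb1 and Hspa12b, 0 chaperone genes were called in either direction and 123 higher and 217 lower among all genes, with 7 chaperone genes lower at the adjusted p. At 2-fold the counts were 148 and 191, and 0 chaperone genes were lower. With no fold threshold they were 2199 and 2193, and 16 and 12 for the chaperone genes. With a pseudocount of 1 they were 230 and 338, and no chaperone gene was higher, since Hspa12b was at 0.57. Whether replicate numbers pair the samples could not be decided from 5 pairs. Same-numbered libraries correlated between -0.121 and 0.137 after removal of the group means, and 2 of 5 correlated best with their own number. With a replicate block 17 chaperone genes were higher and 13 lower at the adjusted p, and the share differences of 6.10 for Dnajb1 and -2.27 for Hsp90aa1 had an exact sign-flip p of 0.0625, the smallest that 5 pairs allow. Unknown depth leaves the precision of genes near 1 FPKM unmeasured beyond the spread of replicates.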

Other observations

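Sec63 and Hscb, which carry a J domain but no Dnaj name, were read beside the J-proteins, and neither was called. Other genes of this kind are not described here. Sec63, the J-protein of the ER translocon, had 24.9, 25.0, 22.9, 26.0 and 26.1 FPKM in WT and 29.0, 27.9, 29.7, 29.9 and 29.1 in ΔFOXC2. The groups did not overlap, and the difference of -0.22 (limma adjusted p = 0.00149) was under 1.5-fold. Sec63 lies on chromosome 10, where the median of 522 genes was -0.11 and 31.4% were above 0. Hscb, the mitochondrial J-protein of iron-sulfur cluster assembly, had 8.10 ± 1.75 and 11.5 ± 0.883 FPKM (-0.52, adjusted p = 0.00583), a larger difference than that of any mitochondrial gene with a Dnaj name, and its groups overlapped. Both were singled out after their values were seen.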
